A study of Mus musculus with 8 samples.

Results

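Eph receptors are receptor tyrosine kinases, and ephrins are the ligands they bind on neighboring cells. Described here are 10 of their genes, found by symbol among the 34478 genes of the deposited table: the A-type receptors Epha1, Epha2 and Epha4, the B-type receptors Ephb2, Ephb3 and Ephb4, the A-type ephrins Efna1 and Efna5, and the B-type ephrins Efnb1 and Efnb2. Each was measured by RNA-seq in 8 libraries, 1 per treatment from each of 4 primary murine lines of pancreatic ductal adenocarcinoma (PDAC), numbered #1, #3, #5 and #10. The lines grew out of pancreatic tumors of mice with Cre at the pancreatic gene Ptf1a (Ptf1awt/Cre) and floxed Trp53 (Trp53loxP/loxP), which control and treated cells share. Treated cells received trametinib, a MEK inhibitor, at the IC50 for 48 h, while controls received DMSO. Cells were grown in medium with serum, and each line stands for 1 primary culture, so the spread given is between lines and not between repeats of a line.

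Eph receptors and ephrins are both bound to membranes, and signal where cells touch, into the cell that holds the receptor (forward signaling) and into the cell that holds the ephrin (reverse signaling). A-type ephrins are held by a lipid anchor, while B-type ephrins span the membrane, and each type binds mainly receptors of its own class, with Epha4 able to bind both. In epithelia these pairs sort cells, set boundaries and control adhesion. Epha2 is abundant in many carcinomas and is known as a gene whose transcription follows ERK signaling, and its usual ligand is ephrin-A1. Epha2 and Epha4 both stand in a set of genes used to read out MAPK activity, and they are the contrasting pair here.

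The pair lies on different chromosomes. Epha2 (ENSMUSG00000006445.3) spans chromosome 4 from 141301240 to 141329384 of GRCm38 on the plus strand with 17 exons, and Epha4 (ENSMUSG00000026235.14) spans chromosome 1 from 77367185 to 77515088 on the minus strand with 18 exons in their longest coding transcripts. The 250 bases before each RefSeq start (GRCm38.p6) are shown because these genes differed in direction with trametinib, with the letters GGAA, the core bound by ETS factors of the ERK pathway, in capitals on either strand (TTCC on the shown strand). The window of Epha2 is chr4:141300971-141301220 on the plus strand and that of Epha4 is chr1:77515089-77515338 on the minus strand.
Epha2: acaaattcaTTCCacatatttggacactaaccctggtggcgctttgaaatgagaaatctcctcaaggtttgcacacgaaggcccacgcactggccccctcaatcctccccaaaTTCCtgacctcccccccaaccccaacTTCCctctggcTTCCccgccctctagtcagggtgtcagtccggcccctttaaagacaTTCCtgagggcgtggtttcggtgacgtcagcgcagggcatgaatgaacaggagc
Epha4: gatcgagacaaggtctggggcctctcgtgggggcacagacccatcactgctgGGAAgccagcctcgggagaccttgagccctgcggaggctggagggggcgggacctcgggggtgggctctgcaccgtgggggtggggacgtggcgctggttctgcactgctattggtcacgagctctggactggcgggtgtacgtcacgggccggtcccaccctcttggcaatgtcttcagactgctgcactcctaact
The window of Epha2 holds the core 5 times and that of Epha4 1 time, where the median over the 32851 windows in the RefSeq table is 3 and 93.4% hold it at least 1 time. The longer ETS form CCGGAA (12.0% of windows), the AP-1 motif TGANTCA (6.75%), the EGR motif GCGTGGGCG (0.536%) and the CArG box (1.47%) were searched on both strands and matched in neither window. The TEAD motif GGAATG (12.6% of windows), which contains the ETS core, occurred 2 times in the window of Epha2 and 0 times in that of Epha4. Over the 11 windows of the 10 genes, CCGGAA matched only in Ephb2, and GGAATG also matched in Epha1 and Efnb2. The core itself occurred 4 times in Epha1 and Efnb1, 3 times in Ephb4 and in both windows of Efna1, 1 time in Ephb2, Ephb3 and Efnb2, and 0 times in Efna5, so the called members that rose held it 1 to 4 times. A match is a string of letters and not a bound site.

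Libraries held between 33385299 and 36385719 normalized counts with DMSO and between 30680091 and 33063309 with trametinib, so every trametinib total was below every DMSO total. The step between low values puts the libraries at about 29315781 to 45949405 reads. Here a read means 1 counted unit, which in 2 × 100 bp sequencing may be a pair of reads. A floor of 3 reads comes to between 2.33 and 3.72 normalized counts, and covers counting error only. Epha1 and Ephb2 were the scarcest members, resting on about 8.2 and 5.4 reads in their lowest libraries, and the other 8 rested on about 490 reads or more. Changes are log2 ratios of normalized counts plus 1 and were tested with limma over the 15888 genes whose mean was 10 or more, with the cell line as a block. A gene is called higher or lower at a Benjamini-Hochberg adjusted p under 0.05.

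Trametinib lowered Epha2, and the other 5 members that were called rose. All 10 members passed the filter, of which 5 were called higher, namely Epha1, Ephb3, Ephb4, Efna1 and Efnb1, 1 was called lower, namely Epha2, and 4 were not called. Of all genes tested, 27.3% were called higher and 25.6% lower, 53.0% in either direction, so changes in both directions were frequent in these lines. That is 4341 genes higher and 4075 lower, and with libraries rescaled to equal totals 5315 and 3284. The median log2 fold change was 0.52 over the members and 0.07 over all genes tested. In direction alone, 6 members were higher in all 4 lines, where 34.7% of all genes tested were, and 1 was lower in all 4, where 30.9% were. Without the block, 0 members were called higher in limma (3 at an unadjusted p under 0.05) and Epha2 was still called lower. The count of higher members was 3 without line #5 and 3 without line #10.

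**Figure D1:**
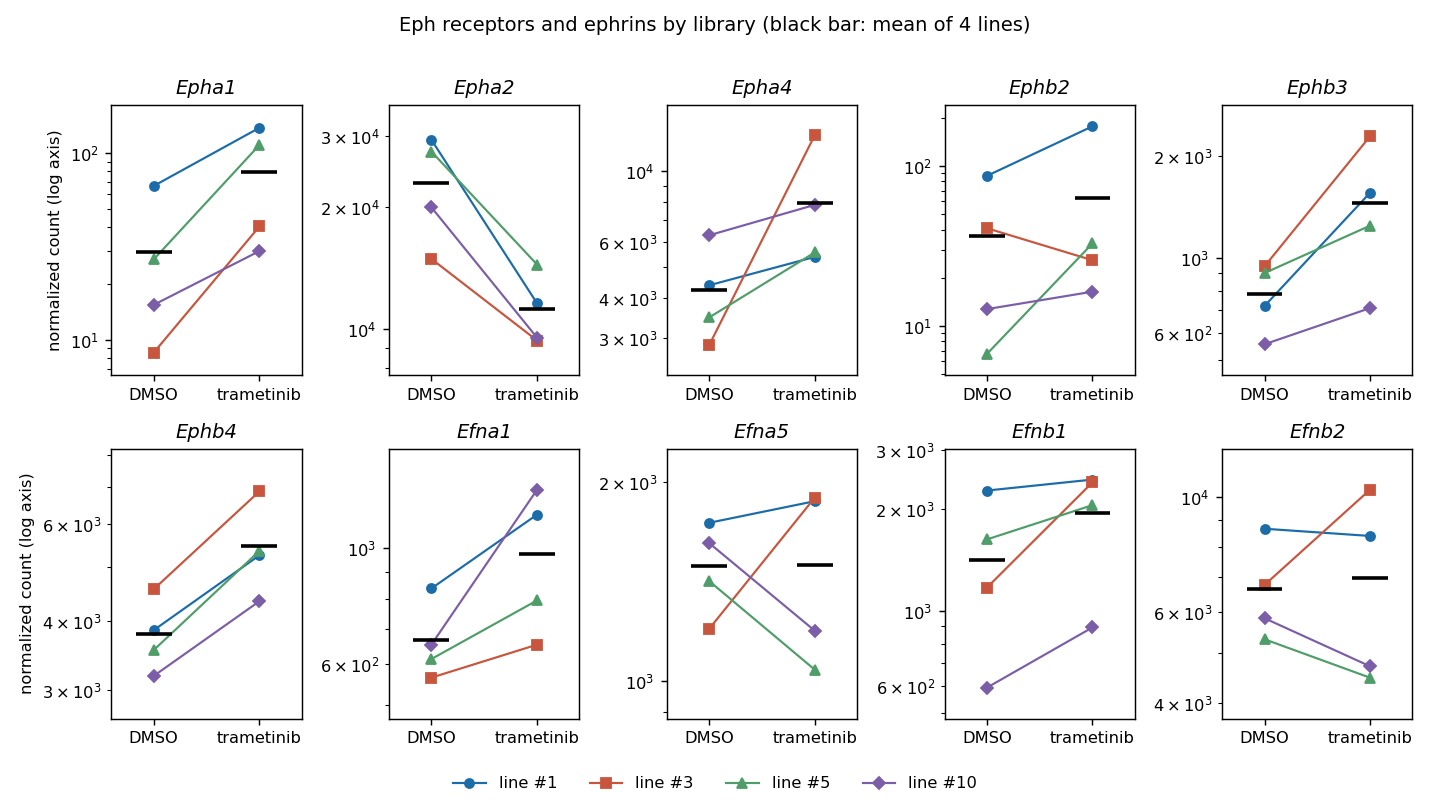
Normalized counts (log axis, scaled per gene) of the 10 genes with DMSO and with trametinib, a colored line for each of the 4 cell lines and a black bar for the mean. Epha2 is the gene whose groups do not overlap, with 14900.3 to 29349 with DMSO and 9364 to 14429 with trametinib.

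Among the A-type receptors, Epha2 had normalized counts of 29349, 14900.3, 27444 and 19982 with DMSO (lines #1, #3, #5 and #10, the order used below), and of 11569, 9364, 14429 and 9514 with trametinib. Every trametinib library lay below every DMSO library, which was so for 16.2% of all genes tested, while 15.1% had every trametinib library above. The fall was 2.54-fold in line #1, 1.59-fold in line #3, 1.90-fold in line #5 and 2.10-fold in line #10, and the log2 fold change was -1.003 (standard error, SE, of 0.12, limma-adjusted p = 0.0010). Epha2 was called lower under each of the 14 alternatives, with an adjusted p of at most 0.016.

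Epha4, a receptor that binds ephrins of both classes and is best known from axon guidance, was higher with trametinib in each line but did not pass the test. Its normalized counts were 4387, 2849.6, 3480 and 6289 with DMSO, and 5383, 12936, 5559 and 7830.02 with trametinib. Line #3 went from the lowest DMSO value to the highest trametinib value, a 4.54-fold difference, while the other lines differed by 1.23- to 1.598-fold. The adjusted p was 0.0504 in limma, and without line #3 the log2 fold change was 0.43 with an adjusted p of 0.012. Epha4 was called higher under 5 of the 14 alternatives, with adjusted p-values from 0.012 to 0.11. Within each line Epha2 was thus lower and Epha4 was higher with trametinib. Per kilobase of the longest coding transcript, the level of Epha2 was 10.8, 8.46, 12.8 and 5.14 times that of Epha4 with DMSO in lines #1, #3, #5 and #10, and 3.48, 1.17, 4.20 and 1.96 times with trametinib. The pair was picked for its contrast, so this difference is a description and was not tested.

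Epha1, a receptor of epithelial tissues, lies on chromosome 6 from 42358487 to 42373268 on the minus strand and was scarce, at 66.6, 8.54, 26.9 and 15.4 with DMSO and 136, 40.4, 110.3 and 29.8 with trametinib. It was higher in 4 of 4 lines with overlapping groups, and its log2 fold change was 1.51 (SE 0.31, limma-adjusted p = 0.0067), or 1.002 with quantile normalization. The last exons of Epha1 share 236 bases with exons of Zyx on the opposite strand (chromosome 6, between 42358487 and 42359091), which is 6.01% of the exonic bases of Epha1. Zyx, the gene of the focal adhesion protein zyxin, was at 1682 to 5420.2 with DMSO and 6951 to 20247 with trametinib (log2 fold change 1.89, limma-adjusted p = 9e-05). Epha1 came to between 0.374% and 1.23% of Zyx in every library, and the log2 levels of both genes had a Pearson r of 0.93 over the 8 libraries, which share 4 lines. The kit kept strand, but whether strand was used in counting is not given in the sources used here, and the part of Zyx reads in the values of Epha1 was not tested.

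Of the B-type receptors, Ephb4, the receptor of ephrin-B2, rose with the smallest spread. It lies on chromosome 5 from 137350109 to 137378669 on the plus strand and had levels of 3844, 4562, 3538 and 3175 with DMSO, and of 5257, 6866, 5354 and 4339 with trametinib. The 4 lines rose by 1.37- to 1.51-fold, although the groups overlapped because line #10 with trametinib lay below line #3 with DMSO. The log2 fold change was 0.52 (SE 0.08, limma-adjusted p = 0.0020). Its exons share 33 bases with Zan on the opposite strand, which stood at 62.1 to 301 normalized counts and did not pass the test (limma-adjusted p = 0.32).

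Ephb3, a receptor with a known part in the positioning of intestinal epithelial cells (chromosome 16, 21204755 to 21223305, plus strand), rose from 721, 945, 902 and 555 to 1562, 2296, 1247 and 711 with trametinib. Lines #1 and #3 rose by 2.167- and 2.43-fold and lines #5 and #10 by 1.38- and 1.28-fold. The log2 fold change was 0.80 (SE 0.18, limma-adjusted p = 0.0086). Ephb2 (chromosome 4, 136647539 to 136835988, minus strand), often described together with Ephb3, was far lower, at 86.7, 40.8, 6.67 and 12.7 with DMSO and 177, 25.7, 32.8 and 16.4 with trametinib. It was lower in line #3 and higher in the other 3 lines, and did not pass the test (log2 fold change 0.71, 95% interval -0.38 to 1.81, limma-adjusted p = 0.23). Its log2 fold change was 0.24 without line #5, 1.17 without line #3 and 0.24 with quantile normalization.

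Of the ligands, Efna1, the gene of ephrin-A1 (chromosome 3, 89271733 to 89281142, minus strand), had 837, 564, 612 and 653 counts with DMSO and 1160.03, 652, 794 and 1295 with trametinib. It was higher in each line, most in line #10 at 1.98-fold and least in line #3 at 1.16-fold, with overlapping groups. The log2 fold change was 0.51 (SE 0.15, limma-adjusted p = 0.024). The adjusted p was 0.071 without line #1, 0.056 without line #5 and 0.087 without line #10. Ephrin-A1 and its receptor thus moved in opposite directions, with Efna1 higher and Epha2 lower in 4 of 4 lines.

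Efnb1, the gene of ephrin-B1 (chromosome X, 99136130 to 99148991, plus strand), differed most between lines among the ephrins of the group with DMSO, at 2270.2, 1171, 1627 and 592. With trametinib it was at 2447, 2402, 2056 and 893, so line #10 was lowest under both treatments. The log2 fold change was 0.52 (SE 0.16, limma-adjusted p = 0.028), from 0.11 in line #1 to 1.04 in line #3. The adjusted p was 0.060 without line #5, 0.094 without line #10 and 0.069 with each library centered on its median.

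Efna5 and Efnb2 did not pass the test, and their lines disagreed in direction. Efna5, the gene of ephrin-A5 (chromosome 17, 62604184 to 62881317, minus strand), went from 1734, 1199.8, 1416 and 1616 to 1869, 1892, 1041 and 1192 with trametinib, so that it was above its DMSO value in lines #1 and #3 and below it in the other two. Efnb2, the gene of ephrin-B2 (chromosome 8, 8617434 to 8661242, minus strand), which pairs with Ephb4 in arteries and veins, went from 8674, 6756, 5307 and 5827 to 8399.9, 10326, 4472 and 4705, higher in line #3 alone. The log2 fold change was -0.03 for Efna5 (95% interval -0.49 to 0.43, limma-adjusted p = 0.91) and 0.00 for Efnb2 (95% interval -0.38 to 0.38, limma-adjusted p = 0.99). These intervals leave room for a fall of Efna5 by 0.49 or a change of Efnb2 by 0.38, and with the libraries rescaled to equal totals Efna5 turned to 0.10, while Efnb2 turned to -0.20 without line #3.

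**Figure D2:**
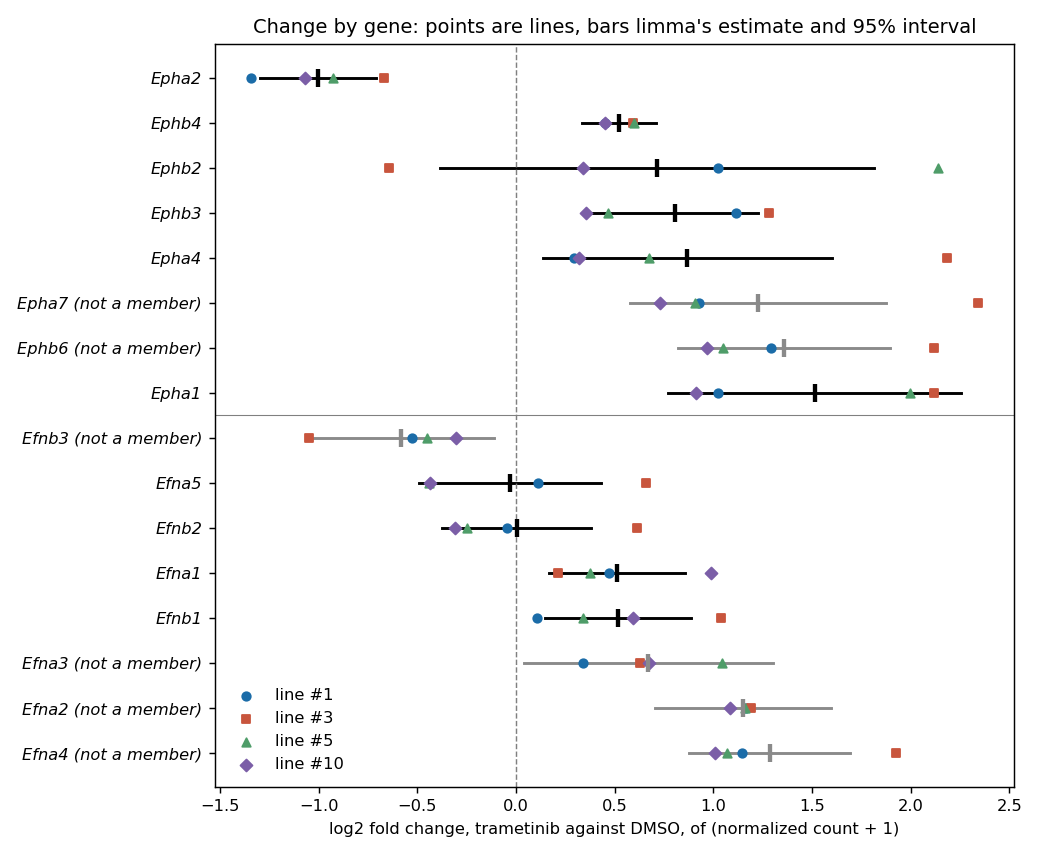
Log2 fold change of 16 Eph receptors (above the line) and ephrins (below it) that passed the filter, with a colored point for each cell line, a tick for the estimate of limma and a bar for its 95% interval. Black bars mark the 10 genes described here and gray bars the other 6, and Epha2 at -1.003 is the one receptor below 0.

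Among the lines, line #3 most often had the highest change. Its log2 fold change was the highest of the 4 lines in 7 of 10 members, namely Epha1, Epha2, Epha4, Ephb3, Efna5, Efnb1 and Efnb2, and the lowest in 2, Ephb2 and Efna1. Over all genes tested, line #3 was the highest in 29.6%, line #1 in 26.2%, line #5 in 23.9% and line #10 in 20.3%. The DMSO library of line #3 was the lowest of the 4 for Epha1, Epha2, Epha4, Efna1 and Efna5. With 1 library per line and treatment, a difference between lines and a difference between single libraries cannot be told apart.

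Levels of different genes were compared per kilobase of the longest coding transcript. With DMSO, Epha2 led the 6 receptors described here at 5857 ± 1713 (SD, n = 4 lines) normalized counts per kilobase, followed by Ephb4 at 871 ± 136 (SD, n = 4 lines), Epha4 at 672 ± 237 (SD, n = 4 lines) and Ephb3 at 164 ± 37.7 (SD, n = 4 lines). Epha1 at 8.97 ± 7.93 (SD, n = 4 lines) and Ephb2 at 3.37 ± 3.35 (SD, n = 4 lines) were lowest of the 6. Of all 14 receptors, Epha7 at 47.2 and Ephb6 at 34.1 came between Ephb3 and Epha1, and the other 6 were below Ephb2. The ranges of Ephb4 and Epha4 overlapped, as did those of Epha1 and Ephb2, and the other neighbors among the 6 did not. Among the ephrins, Efnb2 led at 1386 ± 309 (SD, n = 4 lines), and Efnb1, Efna1 and Efna5 followed at 434 ± 218, 408 ± 73.1 and 369.9 ± 58.1 (SD, n = 4 lines), with overlapping ranges.

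Of the level summed over all 14 Eph receptors, Epha2 made up 79.9%, 68.5%, 80.7% and 72.8% with DMSO in lines #1, #3, #5 and #10, and 52.2%, 35.6%, 58.4% and 49.3% with trametinib. The mean share was 75.5% ± 5.87 (SD, n = 4 lines) and 48.9% ± 9.61 (SD, n = 4 lines), and every trametinib value lay below every DMSO value. Over the same libraries the mean share of Epha4 went from 8.995% ± 3.52 to 21.1% ± 7.99 (SD, n = 4 lines), and that of Ephb4 from 12.04% ± 4.604 to 21.2% ± 1.75 (SD, n = 4 lines). The summed receptor level was lower with trametinib in lines #1, #5 and #10 and higher in line #3, from 5559.7 to 6719. Among the 8 ephrins, Efnb2 made up 46.4% ± 4.56 (SD, n = 4 lines) of the summed level in controls and 36.7% ± 7.70 (SD, n = 4 lines) after treatment, and its share was lower in each line. The summed ephrin level was higher with trametinib in each line, while the mean level of Efnb2 was 1386 with DMSO and 1455 with trametinib per kilobase. Efna4, which is outside the 10 genes, made up 10.2% ± 2.99 and 19.1% ± 3.32 (SD, n = 4 lines).

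**Figure D3:**
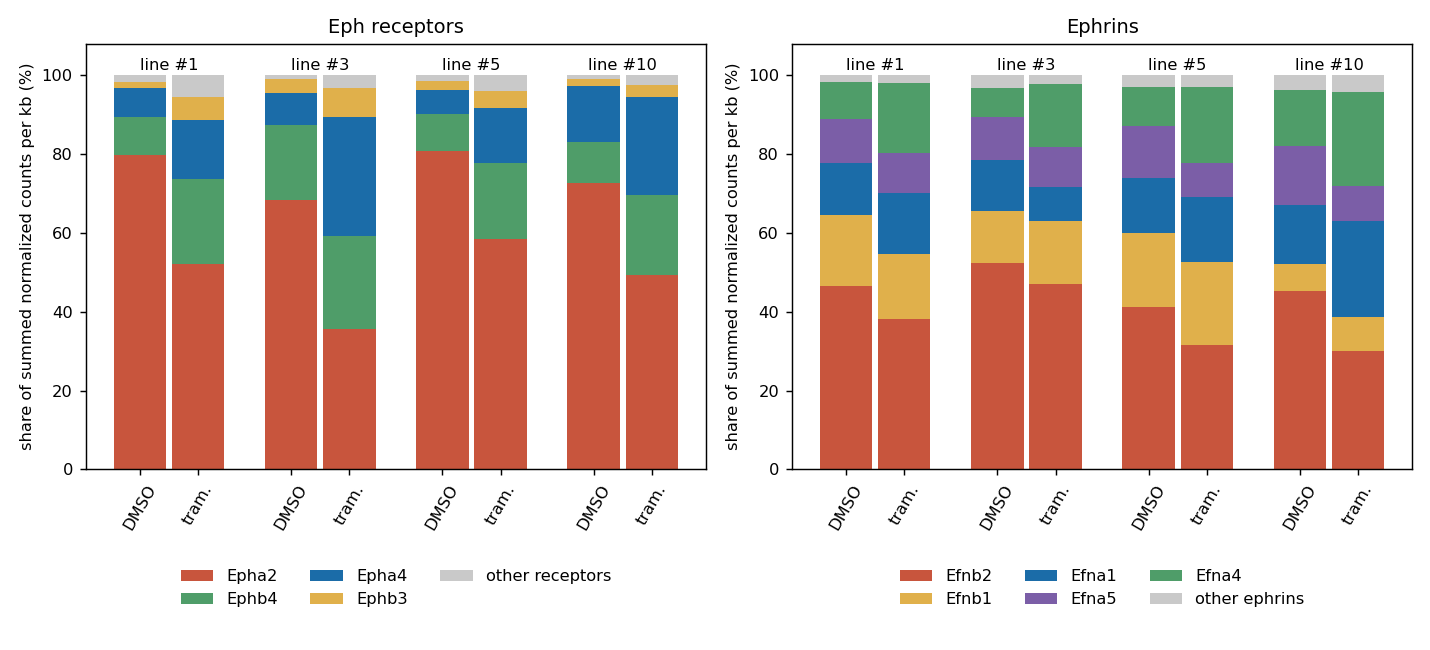
Share (%) of each gene in the summed normalized counts per kilobase of all 14 Eph receptors (left) and all 8 ephrins (right), as stacked bars for DMSO and trametinib (tram.) in each of the 4 cell lines. The bar of Epha2 shrinks from 68.5% to 80.7% with DMSO to 35.6% to 58.4% with trametinib, while those of Epha4 and Ephb4 grow in each line.

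The family has 12 further genes, of which 6 passed the filter. Of these, 4 were called higher (Epha7, Ephb6, Efna2 and Efna4), 1 was called lower (Efnb3), and Efna3 was not called (limma-adjusted p = 0.071), where 27.3% of all genes tested were called higher and 25.6% lower. Efna3 was called higher with equal totals (limma-adjusted p = 0.042) and with eBayes without trend (limma-adjusted p = 0.018), while its log2 fold change of 0.67 became 0.25 with quantile normalization. Efna4, the gene of ephrin-A4, went from 584, 308, 433 and 613 to 1295, 1169, 909 and 1233 with trametinib, without overlap, and its log2 fold change was 1.29 (SE 0.17, limma-adjusted p = 0.0013). It lies with Efna1 and Efna3 between 89271733 and 89338028 of chromosome 3. Efna4 shares 168 exonic bases with 4731419I09Rik on the opposite strand, which stood at 4.96 to 61.8 normalized counts and was called higher (log2 fold change 1.78, limma-adjusted p = 0.0054), and the part of its reads in the values of Efna4 was not tested. Efna2 had nearly the same log2 fold change in every line, from 1.08 to 1.19 (limma-adjusted p = 0.0027), and its estimate was 0.68 with quantile normalization.

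Epha7, a receptor best known from the nervous system, rose by 1.23 on the log2 scale (SE 0.27, limma-adjusted p = 0.0090), with an adjusted p of 0.055 without the block. Ephb6, a receptor without kinase activity, rose by 1.36 (SE 0.23, limma-adjusted p = 0.0029). Both were higher in 4 of 4 lines. Efnb3, the gene of ephrin-B3, fell by 0.58 on the log2 scale (limma-adjusted p = 0.043), in 4 of 4 lines, but had an adjusted p of 0.10 without line #1, #3 or #5, 0.075 without line #10 and 0.091 with equal totals, and a log2 fold change of -1.02 with quantile normalization. Epha3, Epha5, Epha6, Epha8, Epha10 and Ephb1 had means under 10 and were not tested. Of these, Epha8 was at 9.31, 12.5 and 15.4 with DMSO in lines #1, #3 and #10 and at 1.96, 1.87 and 1.93, under the floor of 3 reads, with trametinib, and line #5 had 0 under both treatments.

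Proteins that carry the signal on from Eph receptors and ephrins were followed with a list of 42 genes, of which 40 passed the filter. In limma 13 were called higher and 5 lower, against 27.3% and 25.6% of all genes, and their median log2 fold change was 0.21. The largest rises were those of Kalrn, Mmp14 and Fyn. Kalrn, an exchange factor that acts behind B-type receptors, rose from 306 to 934 normalized counts with DMSO to 2052 to 2887 with trametinib (log2 fold change 2.21, limma-adjusted p = 0.00075). Mmp14, a membrane protease that can cleave Epha2, was at 2278 to 5148 with DMSO and at 13309 to 20201 with trametinib (log2 fold change 2.09, limma-adjusted p = 0.00095). Fyn, a kinase of the Src family, rose by 1.58 on the log2 scale (limma-adjusted p = 0.00064). Without the block, the limma-adjusted p of Fyn was 0.2. Adam10, the protease that cleaves ephrins, was called higher at 0.88 (limma-adjusted p = 0.0070) and is named outside the rule, after its value was seen.

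Of the 5 lower signaling genes, the largest falls were those of Ngef, Chn2 and Acp1. Ngef encodes ephexin, the exchange factor that binds Epha4. It went from 815, 514, 621 and 387 to 112, 553, 71.02 and 118 with trametinib, so line #3, with the largest increase of Epha4, was the line in which Ngef did not fall. The log2 fold change was -1.89 (limma-adjusted p = 0.018), with an adjusted p of 0.077 without line #1, 0.077 without line #5 and 0.052 without line #10. Without line #3 it was -2.55 (limma-adjusted p = 0.00098). Chn2, of the chimaerin family of Rac inhibitors, fell by 0.78 (limma-adjusted p = 0.0034). Acp1, a phosphatase known to act on Epha2, fell by 0.73 (limma-adjusted p = 0.0011), with an adjusted p of 0.054 without the block.

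Epha2 and Epha4 were set beside 8 genes known to be controlled by MAPK signaling. The 8 were picked as known readouts, so their fall was likely beforehand and is a description. All 8 (Dusp4, Dusp6, Spry2, Spry4, Etv4, Etv5, Phlda1 and Ccnd1) were called lower in limma and lower in 4 of 4 lines, with log2 fold changes from -5.92 for Etv4 to -1.12 for Dusp4. Of all genes tested, 25.6% were called lower and 30.9% were lower in 4 of 4 lines. Epha2 was at -1.003 beside these, and fell more than Dusp4 in lines #1 and #10 and less in lines #3 and #5, while Epha4 was above 0 in each line. In line #3, where Epha2 fell least at -0.67 and the change of Epha4 was largest at 2.18, the changes of Dusp4, Dusp6, Spry4, Etv4, Etv5 and Ccnd1 lay within the range of the other lines. Spry2 fell least in line #3, at -1.79 against -2.51 to -1.89, and Phlda1 fell most there, at -2.51 against -1.41 to -0.73.

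**Figure D4:**
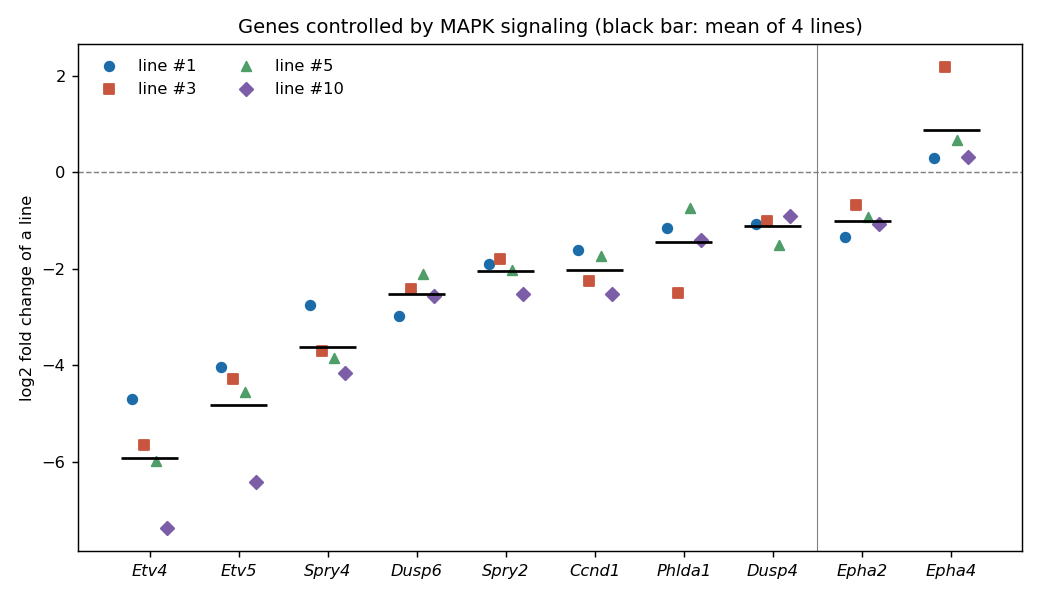
Log2 fold change with trametinib of 8 genes controlled by MAPK signaling, ordered by their mean, and of Epha2 and Epha4 on the right, with a colored point for each of the 4 cell lines and a black bar for the mean. The means run from -5.92 for Etv4 to -1.12 for Dusp4, with Epha2 at -1.003 and Epha4 at 0.87.

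The genes whose log2 levels over the 8 libraries were most like those of Epha2 were Ube2q2 (Pearson r = 0.99), Mtmr10 (r = 0.99) and Itga3 (r = 0.98), of which Itga3, an integrin chain, stood at 28752 to 44786 with DMSO and 18057 to 29529 with trametinib. Those most like Epha4 were Pgm3 (r = 0.98), Gm15408 (r = 0.98) and P4ha3 (r = 0.97). P4ha3, a prolyl hydroxylase of collagens, stood at 1004.6 in line #3 with trametinib and at 304 to 441 in the other trametinib libraries. The 8 points share 4 lines and 2 treatments, so these values only describe the libraries. Epha2 and Epha4 had an r of -0.64 with each other.

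In a list of 7 markers of ductal epithelium, the keratins and Cdh1 were at high levels. Sox9 was lower, at 295 to 1246 normalized counts with DMSO and 65.5 to 828 with trametinib. The 7 markers of that list summed to 221215 to 348774 normalized counts with DMSO and to 112485 to 220925 with trametinib, and 5 of 6 tested were called lower in limma, against 25.6% of all genes, while Cdh1 was not called (limma-adjusted p = 0.88). Epcam, an epithelial marker, was at 0 in both libraries of lines #1, #5 and #10, while line #3 had 10.4 with DMSO and 3.75 after treatment. Since Efnb2 and Ephb4 are also genes of vessels, 7 endothelial markers were read beside them, and they summed to 42.3 to 91.2 with DMSO and 76.6 to 1785 with trametinib. Of 4 tested, 2 were called higher, against 27.3% of all genes, namely Tek (log2 fold change 3.77, limma-adjusted p = 0.0015) and Vwf (2.14, limma-adjusted p = 0.044). Both were higher in 4 of 4 lines and highest in line #3 with trametinib, at 805 and 948, while Pecam1 had a mean of 11.5, Cdh5 of 6.32 and Emcn of 0.256 with trametinib. The 7 fibroblast markers summed to 83.5 to 351 with DMSO and 417 to 1243 with trametinib. Lum was at 0 in every library, and Col1a1 was the one of 4 tested that was called higher, against 27.3% of all genes. The mean of Col1a1 went from 74.1 to 876 with trametinib, and that of Pdgfrb from 2.72 to 7.91. Means were lower with trametinib for Col1a2 (1.29 to 1.12), Col3a1 (28.1 to 22.5), Dcn (19.8 to 16.9) and Pdgfra (53.4 to 47.3). The 5 neural markers, read beside Epha4 and Epha7, summed to 1266 to 2543 with DMSO and 1794 to 3399 with trametinib, with 1 of 3 tested called higher, against 27.3% of all genes. The leukocyte markers summed to 149 to 214 and 151 to 239.5, most of it Cd68, while Ptprc stayed at 17.2 or lower, Cd79a at 8.69 or lower, and Lyz2 and Cd3e at 1.91 or lower. The part of other cells in the levels of the Eph genes was not tested, and in bulk RNA fewer cells of a type and less RNA per cell cannot be told apart.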

How the data were processed

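RNA from 4 primary murine PDAC lines was sequenced by the authors from stranded poly(A) libraries as 2 × 100 bp reads. The submitters' processing notes name CASAVA 2.17, Salmon 0.12, DESeq2 1.18 and mm10, without their roles. The deposited values are normalized counts, a signal per gene that the authors scaled between libraries, so count models were not used. Between 57.4% and 68.04% of low values lay within 0.05 of a whole number of reads, and whole reads were not recovered. The log2 of each value plus 1 entered a linear model in limma 3.58.1 under R 4.3.3 (lmFit, eBayes with trend, cell line as a block) for genes with a mean of 10 or more, with Benjamini-Hochberg adjustment over all of these. Libraries are paired since both of a line carry its number, and their deviations from the treatment means correlated at 0.63 to 0.72. On simulated data the fit recovered 97 of 103 genes changed 2-fold, 91 of 91 changed 4-fold, and called 7 unchanged genes, with 15728 genes fitted. There, few genes changed, each by the same ratio in every line. In the real data 53.0% of genes were called and lines differed, so these rates do not carry over. Tables and plots used Python 3.11.15, pandas 2.3.3, numpy 2.4.6 and matplotlib 3.10.9. Positions and lengths came from GENCODE M21 (GRCm38), by symbol for 10 of 10 members, and promoter windows are from RefSeq.

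The members and lists were chosen with earlier results of these data known. Named are all members, the other family genes with a mean of at least 10, the 3 largest rises and falls among signaling genes called, the 3 genes most like Epha2 and Epha4, and 8 MAPK genes. Others were chosen after their values were seen. The 14 alternatives were pseudocounts of 0.1 and 5, no filter, a filter at 50, equal totals, quantile normalization, centering on the median, no block, eBayes without trend or with robust estimation, and each line left out. Nothing in the table says that lines came from separate animals, so p-values measure the spread between lines. A further allele of the mouse model is not reported here.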

Additional observations from a re-analysis of the deposited data

Results flagged for a closer look

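Among 30 sets of 4 values (each member with DMSO, with trametinib and as a change), 1 held a value set far apart, where chance gives about 1.5. Ephb2 stood at 177 normalized counts in line #1 with trametinib, against 16.4 to 32.8 in the other lines.

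In 3 members the lines moved in opposite directions, and these differences were not tested, since each line has 1 library per treatment. For Ephb2 the log2 ratio was -0.65 in line #3 and 2.14 in line #5, where the DMSO value of 6.67 rests on about 5.4 reads. Efna5 ran from -0.44 in line #5 to 0.66 in line #3, and Efnb2 from -0.31 in line #10 to 0.61 in line #3.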

How the results depend on the processing

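Of 139 alternative fits of single members, 115 kept the direction and the side of the threshold, 13 lost the call, 5 gained it and 6 turned the direction. Without the replicate block (the pairing by line), 0 members were called higher (3 at an unadjusted p under 0.05 in limma) and 1 lower, and over all genes 2205 were higher and 2347 lower. Of the further family genes 3 were then higher and 0 lower, and of the signaling genes 7 were higher and 2 lower. With eBayes without trend 3 members were higher. With each line left out, 3 to 6 members were higher, 0 further genes were lower (at most 1 at an unadjusted p under 0.05 in limma), and 3 to 5 signaling genes were lower. No further gene was lower without a filter or with equal totals, at 0 in both (2 and 0 at an unadjusted p under 0.05 in limma). The 6 turns were in members that were never called. Efna5 was at 0.10 with equal totals, 0.0207 with quantile normalization and from -0.26 to 0.11 with each line left out, and Efnb2 at -0.0564 with centering on the median and from -0.20 to 0.11 with each line left out. Epha4 was called higher with a pseudocount of 5, a filter at 50, equal totals, quantile normalization and without line #3. Equal totals moved the median of all genes by 0.13 and quantile normalization by -0.10 on the log2 scale, and calls were then 61.8% and 47.2% higher, against 51.6%. Ephb2 could not be fitted with a filter at 50. With the union of exons as length, chosen after seeing the data, the share of Efnb2 with DMSO was 38.8% and that of Ephb4 with trametinib 23.6%. The causes were not tested.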
